A study of Mus musculus with 16 samples.

Results

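A set of 8 genes known as markers of the striatum, Ppp1r1b, Rgs9, Adora2a, Pde10a, Adcy5, Rarb, Rasd2 and Syndig1l, was followed through RNA-seq libraries made from mouse hippocampus. They were taken as the entries of the expression table whose gene name equalled one of the 8 names, out of 22572 names in the table, and each matched 1 locus. The 8 names were selected on their FPKM in these same 16 libraries, with earlier results in view, and which libraries or comparisons weighed in the choice is not recorded. All values below are therefore a description and the comparisons give no independent support for the choice. All 16 libraries came from hippocampus of male C57BL/6 mice, in 4 groups of 4. WT water mice were wild type and drank regular water, and WT fructose mice were wild type and drank 15% (w/v) fructose. BgnKO water and BgnKO fructose mice carried the Bgn0/- genotype, a loss of the X-linked gene of the matrix proteoglycan biglycan, and had the same drinks. Fructose was given for 6 weeks from 3 months of age. The labels do not say whether the libraries of a group came from separate animals, and p-values measure the spread between libraries only. The labels do not say which stretch of Bgn is missing.

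Most neurons of the striatum are GABAergic medium spiny neurons, which receive dopamine and send their axons along a direct or an indirect pathway. In these cells the receptor encoded by Adora2a and dopamine receptors act on the cyclase encoded by Adcy5, the cAMP that it makes is broken down by the enzyme encoded by Pde10a, and cAMP-dependent kinase turns the Ppp1r1b product, DARPP-32, into an inhibitor of protein phosphatase 1. Hippocampal neurons also express several of these genes, so a marker of striatum is not absent from hippocampus.

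Values are FPKM as the authors deposited them, that is, sequenced fragments divided by transcript length and by a measure of library size. FPKM is per length, so levels can be compared between genes, but it keeps no read number, and depth and counting error are unknown. The sum over named genes was 342721 to 376209 FPKM per library, and 12343 to 12885 named genes reached 1 FPKM. The replicate 1 libraries stood apart from the rest. Their root mean square log2 difference from the other libraries of their group was 0.30 to 0.46, against 0.18 to 0.31 among replicates 2 to 4. Bgn itself lay between 9.94 and 24.2 FPKM in WT water, between 5.42 and 21.2 in WT fructose, between 4.46 and 7.60 in BgnKO water and between 5.02 and 7.11 in BgnKO fructose. The library labelled WT fructose replicate 1 (5.42 FPKM) lay inside the BgnKO range, and each WT fructose value below includes it. Replicate 1 had the lowest Bgn of its group in all 4 groups. Replicates 2 to 4 lay between 11.7 and 24.2 FPKM in WT water and between 17.2 and 21.2 in WT fructose. They lay between 7.19 and 7.60 in BgnKO water and between 6.69 and 7.11 in BgnKO fructose. In bulk tissue, fewer cells of a type and less RNA per cell cannot be told apart.

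Start-site sequences are shown for 3 of the genes, because 2 of them, Rgs9 and Pde10a, had their highest value in the same library and Rarb carries a known response element for its own ligand. Rasd2 had its highest value in that library too, but its window held none of the motifs searched and is not printed. They are RefSeq promoter windows of build GRCm38.p6, in which 5 of the 8 genes were found with 6 windows. Capitals mark a TATA box (TATAAA) or a GC box (GGGCGG on either strand, so CCGCCC as printed) in Rgs9 and Pde10a, and the DR5 retinoic acid response element in Rarb. The Rgs9 run is the 250 bases before the start site on the minus strand, chr11:109298182-109298431. The Pde10a run is chr17:8801495-8801692 on the plus strand and ends 52 bases before the start site. The Rarb run is chr14:16575506-16575535 on the minus strand.
Rgs9: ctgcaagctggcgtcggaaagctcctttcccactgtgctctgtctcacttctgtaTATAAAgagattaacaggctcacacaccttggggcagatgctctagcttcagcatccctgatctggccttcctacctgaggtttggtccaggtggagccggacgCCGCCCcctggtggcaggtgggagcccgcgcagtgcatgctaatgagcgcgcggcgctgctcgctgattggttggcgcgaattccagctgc
Pde10a: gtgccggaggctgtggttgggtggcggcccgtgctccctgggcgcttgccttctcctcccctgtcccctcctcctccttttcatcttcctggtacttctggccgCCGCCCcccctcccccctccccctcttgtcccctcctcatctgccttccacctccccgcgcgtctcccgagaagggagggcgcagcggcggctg
Rarb: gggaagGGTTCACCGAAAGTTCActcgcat
In these windows Rgs9 had its TATA box at bases -195 to -190 and its GC box at -91 to -86, counted from the start site. The GC box of Pde10a was at -146 to -141, and the element of Rarb was at -53 to -37. Among the 32851 windows of 250 bases in the RefSeq table, 32.7% held the GC box, 12.4% the TATA box and 0.0883% (29 windows) the DR5 element. Adcy5 held 4 GC boxes, Rasd2 held none of the motifs, and the cAMP response element TGACGTCA, found in 1.55% of all windows, was in none of the 6. The base composition was 59.6% G and C for the Rgs9 run and 70.7% for the Pde10a run. Rgs9 held the GC box, as did 1 of the 2 windows of Pde10a, while the other, with its start site at 8849985, held none of the motifs, and a match describes letters only.

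The 8 genes spanned a wide range of levels in hippocampus. Over the 16 libraries Ppp1r1b averaged 48.8 FPKM, Rasd2 38.8, Adcy5 35.7 and Pde10a 9.98, whereas Rgs9 averaged 3.93, Syndig1l 3.52, Rarb 2.13 and Adora2a 0.94. In this order the ranges over libraries of Ppp1r1b, Rasd2 and Adcy5 overlapped. The range of Syndig1l (2.23 to 5.44 FPKM) overlapped those of Rgs9 (2.99 to 6.56) and Rarb (1.59 to 2.66), which did not overlap each other. Pde10a (7.51 to 13.9 FPKM) overlapped none of the others, and Adora2a lay below Rarb in 15 of the 16 libraries. The coefficient of variation was 58.1% for Adora2a, 27.9% for Ppp1r1b, 22.9% for Syndig1l, 20.9% for Rgs9, 15.7% for Rarb, 13.9% for Pde10a, 12.1% for Rasd2 and 11.3% for Adcy5. Ppp1r1b was thus both the most abundant of the 8 and the second most variable.

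**Figure D1:**
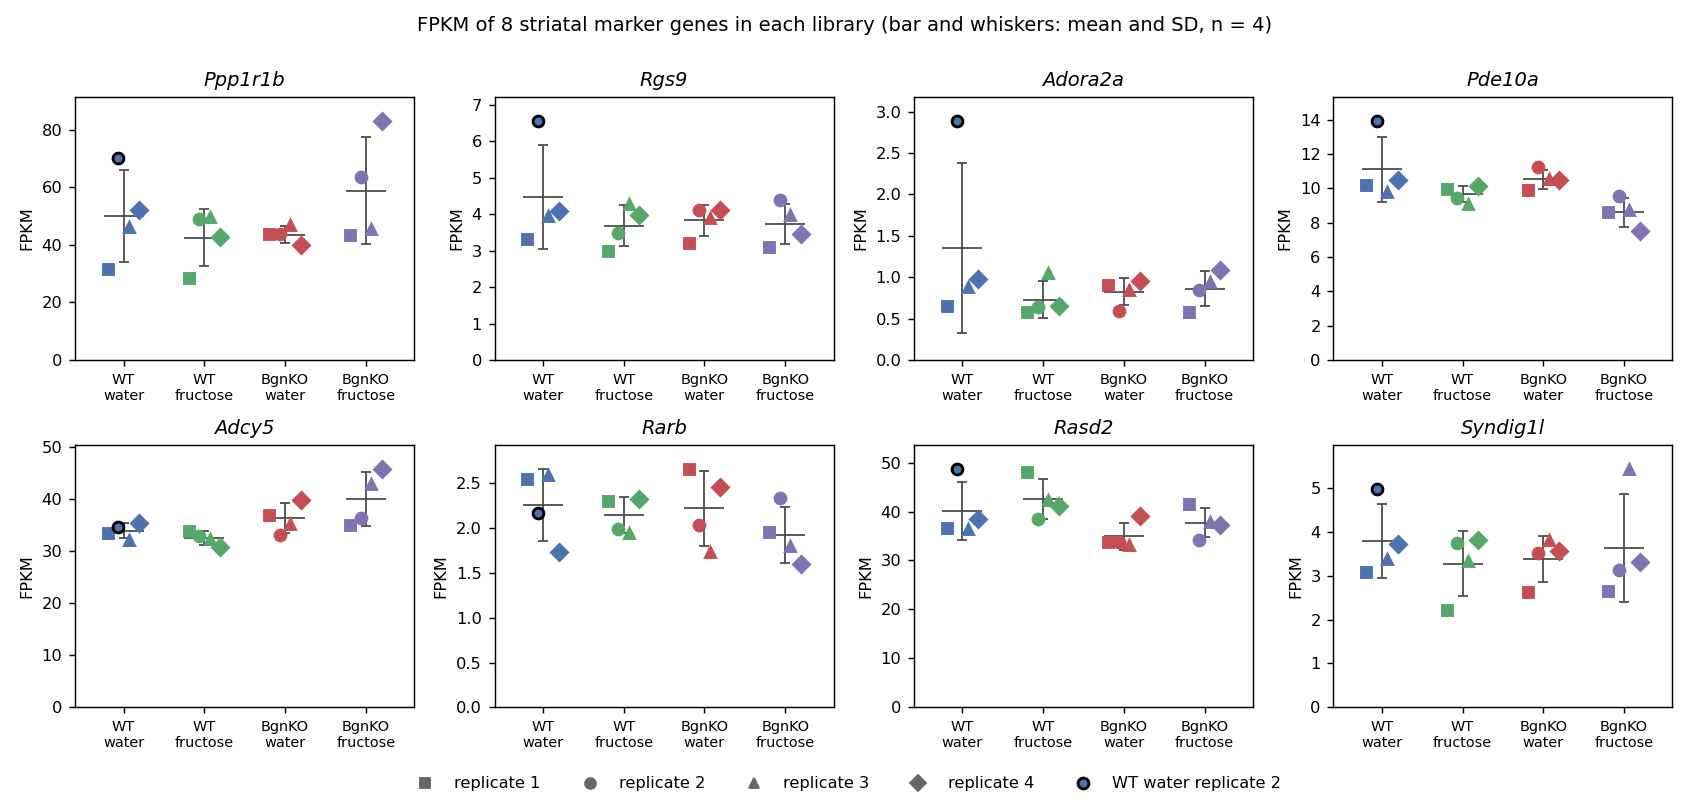
FPKM of each of the 8 genes in each library, one panel a gene, with symbols for replicate numbers, horizontal bars for group means and whiskers for SD (n = 4 a group). WT water replicate 2, outlined in black, stands highest of 16 for Rgs9 (6.56 FPKM), Adora2a (2.89), Pde10a (13.9) and Rasd2 (48.8).

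Adora2a encodes the adenosine receptor of indirect-pathway striatal neurons, which raises cAMP (chr10:75316877-75334784, plus strand, GRCm38). In WT water it was listed at 0.657, 2.89, 0.884 and 0.983 FPKM in replicates 1 to 4, and in WT fructose at 0.574, 0.637, 1.06 and 0.652. BgnKO water had 0.905, 0.593, 0.841 and 0.957 FPKM, and BgnKO fructose had 0.573, 0.851, 0.938 and 1.09. A single library, WT water replicate 2, was 3.40 times the median of the other 15, and those 15 all lay between 0.573 and 1.09 FPKM with the 4 groups overlapping. The WT water mean of 1.35 ± 1.03 FPKM (SD, n = 4) was 0.84 ± 0.17 (SD, n = 3) without that library. With a mean of 0.94 FPKM over the libraries, Adora2a fell below the filter of 1 FPKM used for testing, so 7 of the 8 genes were tested. Of the other adenosine receptors, Adora1 was at 71.8 ± 5.31 FPKM (SD, n = 16), Adora2b at 2.29 ± 0.59 and Adora3 at 0.56 ± 0.17. Adora1, which lowers cAMP, is thus the receptor of this family with the highest level here, and it ranked 5 of 16 in WT water replicate 2.

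Adcy5 encodes the adenylyl cyclase that makes most striatal cAMP (chr16:35154877-35305738, plus strand). In WT water it was at 33.6, 34.6, 32.2 and 35.5 FPKM in replicates 1 to 4, and in WT fructose at 33.9, 33.0, 32.4 and 30.9. BgnKO water had 37.0, 33.1, 35.3 and 39.9 FPKM, and BgnKO fructose had 35.0, 36.5, 42.8 and 45.9. Each BgnKO fructose library lay above each WT fructose library, the water groups overlapped, and WT water replicate 2 had rank 9 of 16. Of the 9 cyclases on the family list, Adcy1 (117 ± 20.3 FPKM, SD, n = 16) and Adcy2 (47.6 ± 2.83) were above Adcy5 (35.7 ± 4.04), and Adcy9 (27.5 ± 2.30) was below it.

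Pde10a encodes a phosphodiesterase that hydrolyses cAMP and cGMP and is concentrated in medium spiny neurons (chr17:8525372-8986648, plus strand). Pde10a was at 10.2, 13.9, 9.81 and 10.5 FPKM in WT water, and in WT fructose at 9.98, 9.46, 9.08 and 10.1. BgnKO water had 9.88, 11.2, 10.6 and 10.5 FPKM, and BgnKO fructose had 8.62, 9.54, 8.73 and 7.51. The value of WT water replicate 2 stood above the other 15 libraries, and all 4 BgnKO fructose libraries lay below all 4 BgnKO water libraries. The WT water mean was 11.1 ± 1.90 FPKM (SD, n = 4), and 10.2 ± 0.34 without replicate 2. Among 11 phosphodiesterases on the family list Pde2a (102 ± 5.55 FPKM, SD, n = 16), Pde1a (74.6, range 46.1 to 94.7), Pde1b (40.5 ± 4.05) and Pde4a (31.1 ± 3.51) had the highest levels, and Pde10a had 9.98 ± 1.39.

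Ppp1r1b encodes DARPP-32, the phosphatase inhibitor on which dopamine and adenosine signals converge (chr11:98348404-98357796, plus strand). An antisense transcript with an entry of its own overlaps it, and whether counting used strand is not stated by the submitters' notes, so reads of both cannot be told apart there. DARPP-32 mRNA was at 31.8, 70.2, 46.1 and 52.2 FPKM in WT water, and in WT fructose at 28.4, 49.0, 49.8 and 42.8. BgnKO water had 43.7, 43.6, 47.0 and 39.9 FPKM, and BgnKO fructose had 43.4, 63.6, 45.4 and 83.0. WT water replicate 2 and BgnKO fructose replicates 2 and 4 held the 3 highest values, the library labelled WT fructose replicate 1 held the lowest, and all groups overlapped. The group SD ran from 2.92 FPKM in BgnKO water to 18.5 in BgnKO fructose. Its relative Ppp1r1a, the first described inhibitor of this phosphatase, was at 70.3 ± 13.5 FPKM (SD, n = 16), and Ppp1r2 was at 16.6 ± 2.69.

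Rgs9 encodes a regulator that speeds GTP hydrolysis by inhibitory G proteins and dampens dopamine and opioid receptor signals in striatum (chr11:109225355-109298129, minus strand). In WT water it was at 3.33, 6.56, 3.94 and 4.10 FPKM, and in WT fructose at 2.99, 3.50, 4.28 and 3.97. BgnKO water had 3.21, 4.12, 3.89 and 4.11 FPKM, and BgnKO fructose had 3.11, 4.38, 3.98 and 3.47. In this gene WT water replicate 2 was 1.66 times the median of the other 15 libraries, none of which passed 4.38 FPKM. The WT water mean was 4.48 ± 1.43 FPKM (SD, n = 4), and 3.79 ± 0.41 without that library. Of its R7 relatives, Rgs7 was at 40.5 ± 4.33 FPKM (SD, n = 16) and Rgs11 at 4.78 ± 1.56, and the R7 anchor Rgs7bp was at 61.5 ± 7.41.

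Rasd2 encodes Rhes, a small GTPase of striatal neurons (chr8:75213944-75224113, plus strand). Rasd2 was at 36.6, 48.8, 36.4 and 38.5 FPKM in WT water, and in WT fructose at 48.1, 38.5, 42.4 and 41.0. BgnKO water had 33.8, 33.8, 33.2 and 39.1 FPKM, and BgnKO fructose had 41.5, 34.3, 37.8 and 37.3. WT water replicate 2 was the highest and the library labelled WT fructose replicate 1 came next, with all groups overlapping on each drink or genotype. The related Rasd1 was at 26.8 ± 6.49 FPKM (SD, n = 16).

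Rarb encodes a nuclear receptor for retinoic acid that acts in the formation of striatal neurons (chr14:16430839-16819156, minus strand). The gene overlaps Top2b on the other strand, and the same limit on strand applies. In WT water it was at 2.54, 2.16, 2.58 and 1.73 FPKM, and in WT fructose at 2.30, 1.99, 1.94 and 2.33. BgnKO water had 2.66, 2.03, 1.73 and 2.46 FPKM, and BgnKO fructose had 1.95, 2.34, 1.80 and 1.59. No library stood apart, all groups overlapped, and WT water replicate 2 had rank 8 of 16. Among retinoid receptors Rxrb (22.3 ± 1.89 FPKM, SD, n = 16), Rxra (9.39 ± 1.13), Rara (6.33 ± 1.51) and Rarg (4.11 ± 0.80) lay above Rarb (2.13 ± 0.34).

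Syndig1l encodes capucin, a membrane protein of the caudate and putamen related to the synaptic protein SynDIG1 (chr12:84677277-84698831, minus strand). Syndig1l was at 3.08, 4.97, 3.37 and 3.73 FPKM in WT water, and in WT fructose at 2.23, 3.75, 3.32 and 3.81. BgnKO water had 2.62, 3.51, 3.82 and 3.56 FPKM, and BgnKO fructose had 2.65, 3.12, 5.44 and 3.32. BgnKO fructose replicate 3 was the highest and WT water replicate 2 came next. Syndig1 was at 12.2 ± 1.35 FPKM (SD, n = 16).

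Read across the genes, 1 library of the 16 held the highest value more often than any other. WT water replicate 2 was the highest of 16 for 4 of 8 genes, Rgs9, Adora2a, Pde10a and Rasd2, as it was for 2.64% of the 12648 tested genes. It was the highest of the 4 WT water libraries for 6 of 8, as it was for 21% of tested genes. Ppp1r1b and Syndig1l were the other two. The 4 stayed the highest there after rescaling libraries by median ratios and after quantile normalization, both added after seeing the data. On the log2(FPKM + 1) scale its excess over the median of the other 15 was 1.07 for Adora2a, 0.62 for Ppp1r1b, 0.61 for Rgs9, 0.46 for Pde10a, 0.45 for Syndig1l and 0.36 for Rasd2. Rarb had an excess of 0.06 and Adcy5 of -0.02. Over all tested genes the central 95% of such excesses ran from -0.32 to 0.30, and 171 genes (1.35%) reached 0.4, as 5 of the 8 genes did. Adora2a is counted among the 8 but was not tested, so these shares do not cover it. The 8 genes were selected on these same libraries, so their counts are a description. By the gap above the next library, Rgs9 (0.49) and Pde10a (0.29) had ranks 3 and 4 of 12648 tested genes, after 2 merged entries of small RNAs and their hosts. Rarb and Adcy5 were thus inside the range of ordinary genes in this library.

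**Figure D2:**
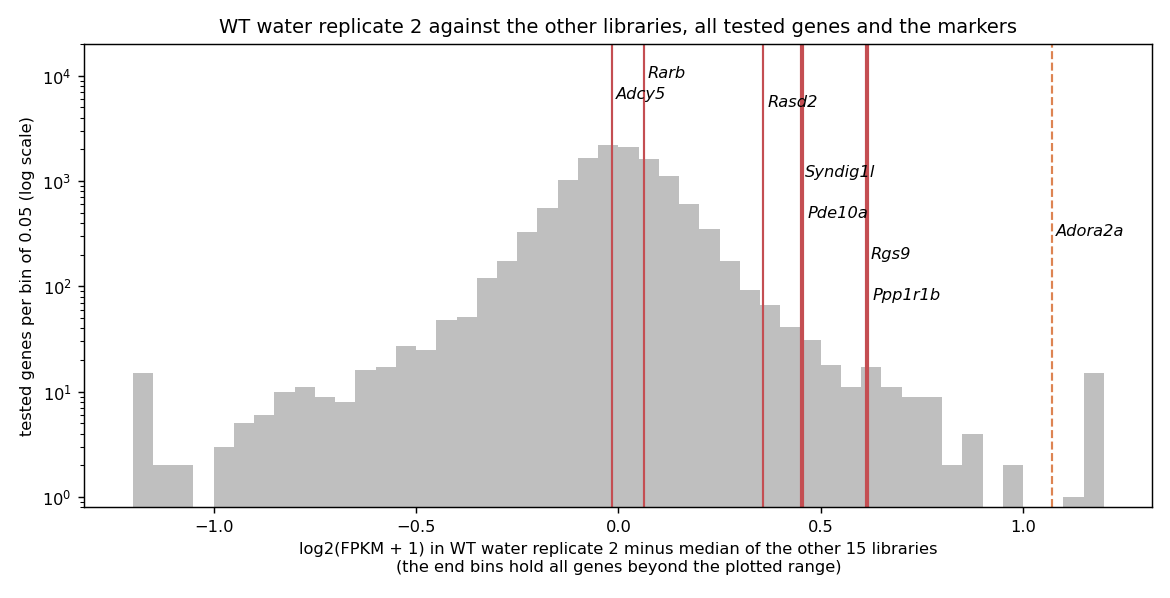
Histogram of the log2 excess of WT water replicate 2 over the median of the other 15 libraries for all 12648 tested genes (x axis, log2(FPKM + 1) difference; y axis, number of genes on a log scale, and the end bins hold genes beyond the range), with lines at the striatal genes. Adora2a (1.07), Ppp1r1b (0.62), Rgs9 (0.61), Pde10a (0.46), Syndig1l (0.45) and Rasd2 (0.36) lie right of the central 95%, and Rarb (0.06) and Adcy5 (-0.02) lie inside it.

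Other striatal genes were listed from general knowledge, in 2 lists, with earlier results of these libraries known, so they are no independent check. The first held 14 genes listed as low in hippocampal neurons, whose means over these 16 libraries ran from 0.19 FPKM for Sh3rf2 to 7.76 for Dclk3 and 20.8 for Lrrc10b. In WT water replicate 2, 6 of these 14 had their highest value and 0 their lowest, where 2.64% of all tested genes had their highest. That share covers tested genes only, and 9 of the 14 were tested, Slc35d3 not among them. The 6 were the dopamine receptor genes Drd1 (entered under its older name Drd1a, 2.15 FPKM against a median of 1.49 in the other 15) and Drd2 (5.09 against 2.82), the sodium channel subunit gene Scn4b (7.82 against 5.04), the kinase gene Dclk3 (9.20 against 7.88), the retinoid receptor gene Rxrg (2.54 against 2.08) and Slc35d3 (1.15 against 0.59). The highest of the other 15 libraries was at 1.99 FPKM for Drd1, 4.71 for Drd2, 6.68 for Scn4b, 9.04 for Dclk3, 2.52 for Rxrg and 1.03 for Slc35d3. Among the other 8, Gpr6 (1.44 FPKM against a median of 0.90) and Sh3rf2 (0.44 against 0.16) had rank 2 of 16 in WT water replicate 2, and Lrrc10b rank 9. The transcription factor gene Ikzf1 had rank 3 (0.85 against 0.64), Six3, Ebf1 and Isl1 each had rank 7, and the receptor gene Gpr149 had rank 13. The summed level of the 14 was 52.8 FPKM there, rank 3 of 16, with a range of 35.9 to 66.5, and the top sum, in the library labelled WT fructose replicate 1, held 40.6 FPKM of Lrrc10b.

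The second list held 13 striatal genes that hippocampal neurons also express. Its sum was highest in WT water replicate 2, at 439 FPKM in a range of 330 to 439, and 2 of the 13, the enkephalin precursor gene Penk (48.0 FPKM against a median of 32.9) and the G protein gene Gnal (43.1 against 37.7), had their highest value there and are named for it, after their values were seen. The 7 markers of cholinergic neurons, which striatum and septum share, summed to 3.34 FPKM in that library, rank 10 of 16 in a range of 1.27 to 10.4, with 0 of 7 highest. The highest cholinergic sum was in BgnKO water replicate 3.

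**Figure D3:**
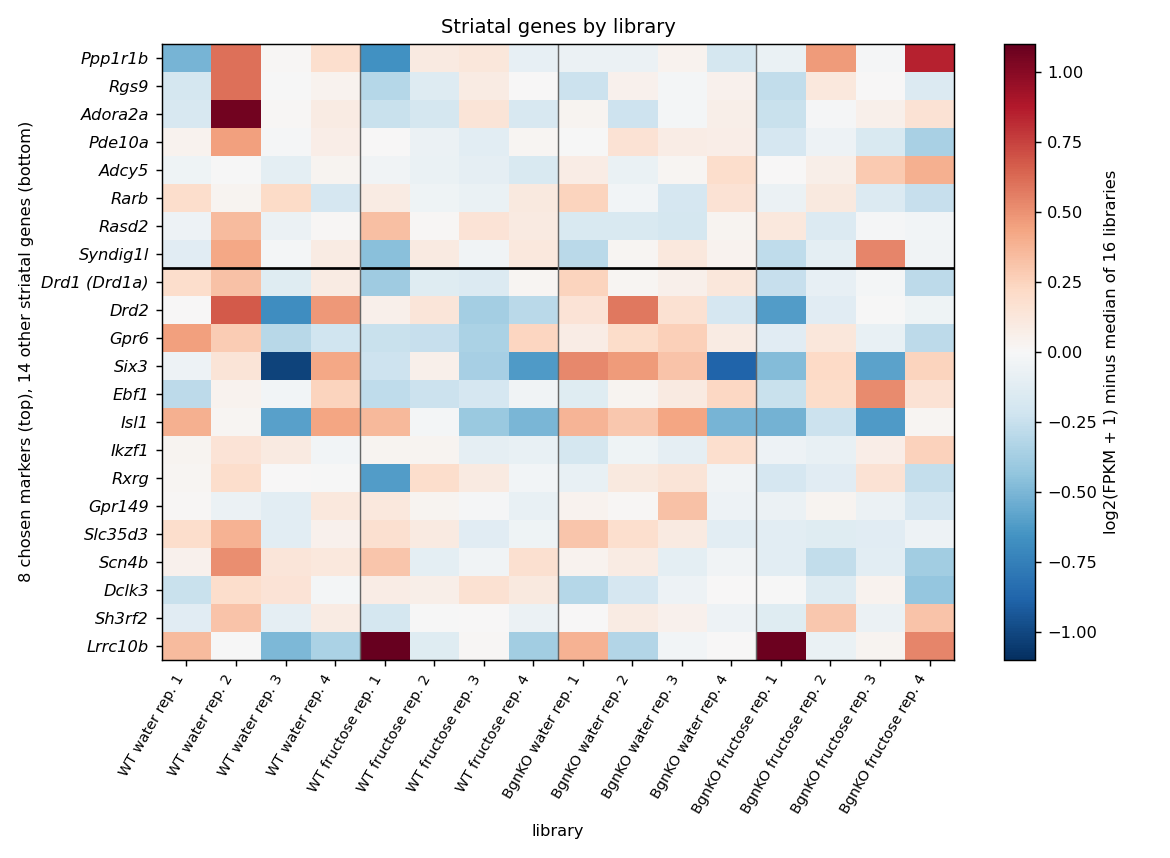
Heat map of log2(FPKM + 1) minus the gene's median over the 16 libraries (colour, with values beyond the scale at its end colours) for the 8 striatal genes (upper rows) and the 14 other striatal genes listed as low in hippocampal neurons (lower rows), one column a library. The WT water replicate 2 column holds the highest value of 4 of the 8 and of 6 of the 14, and the replicate 1 columns are low for Rgs9 and Syndig1l.

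Markers of other tissues and cell types were set beside these values. Of the lists for hippocampal principal neurons, GABAergic neurons, thalamus, septum, choroid plexus, astrocytes, oligodendrocytes, microglia and endothelium, 0 genes were at their highest there, and of 10 cortical genes 1 was, Krt12. The choroid plexus sum in WT water replicate 2 was 6060 FPKM, rank 4 of 16 in a range of 233 to 9202. The oligodendrocyte sum was 2944 FPKM, rank 3 of 16, and the endothelial sum was 101 FPKM, the lowest of 16. The GABAergic sum was 705 FPKM, rank 14 in a range of 560 to 903, and the lowest of the WT water libraries. Septal genes had rank 13, astrocyte genes 9 and microglial genes 8. Hippocampal principal neurons and thalamus each had rank 6, and cortical genes 5. The part of tissue makeup in the high striatal values of this library was not tested.

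The 8 genes did not move as 1 group over libraries. Among their 28 pairs the median Pearson r over 16 libraries was 0.22, with 7 pairs at 0.5 or more and 10 below 0. Without WT water replicate 2 the median was -0.09, with 3 pairs at 0.5 or more and 17 below 0. Rgs9 and Adora2a had an r of 0.83 over 16 libraries and 0.47 over 15. Rgs9 and Syndig1l had 0.70 and 0.62, and Ppp1r1b and Adora2a had 0.61 and 0.60. Pde10a and Ppp1r1b had -0.09 and -0.56. All of these r values share libraries, and they describe them without a test.

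Some of the genes were split by replicate number. The replicate 1 library was the lowest of its group in all 4 groups for Rgs9 (2.99 to 3.33 FPKM against 3.47 to 6.56 in the other 12 libraries) and for Syndig1l (2.23 to 3.08 against 3.12 to 5.44). Such a full separation below the other 12 was found for 7.28% of tested genes, and above them for 13.8%. For Ppp1r1b and Adora2a replicate 1 was the lowest in 3 of 4 groups, and for Rasd2 it was the highest in 2. The labels do not say what the replicate numbers stand for.

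The design asks what loss of Bgn does on each drink, what fructose does in each genotype, and whether the fructose effect differs between genotypes. With limma, 0 of the 7 tested striatal genes passed an adjusted p of 0.05 in any of the 5 comparisons. In BgnKO against WT on water 0.387% of tested genes passed, on fructose 3.76%, for the drink 0.00791% in WT and 0% in BgnKO, and for the interaction 0.00791%. At an unadjusted p under 0.05 the striatal genes passing were 0 on water, 1 on fructose, 0 for fructose in WT, 1 for fructose in BgnKO and 0 for the interaction, where 5.33%, 21.3%, 2.08%, 12.9% and 2.91% of all tested genes did. The comparisons on the same group share its libraries.

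On water, BgnKO against WT, the log2 folds were small and 6 of 7 were below 0, with a median of -0.12 where that of all tested genes was -0.0011. Rasd2 had -0.18 (SE 0.10), Rgs9 -0.15 (SE 0.15), Ppp1r1b -0.14 (SE 0.24), Syndig1l -0.12 (SE 0.17), Pde10a -0.06 (SE 0.09) and Rarb -0.02 (SE 0.11), and Adcy5 had 0.09 (SE 0.08). Without WT water replicate 2 these were -0.09, 0.01, 0.03, -0.01, 0.05, -0.03 and 0.10 in that order, so 3 of the 6 values below 0 changed sign with 1 library. Adora2a, from a fit without the filter, had -0.28 (SE 0.20), and -0.01 (SE 0.11) without that library. On water 0 of 7 genes had groups apart, where 4.01% of tested genes did.

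On fructose, BgnKO against WT, Adcy5 had the largest ratio of fold to error among the 7. Its means were 40.1 ± 5.16 FPKM in BgnKO fructose and 32.5 ± 1.27 in WT fructose (SD, n = 4 each), with no overlap, which held for 11% of tested genes. The log2 fold was 0.28 (SE 0.08, 95% interval 0.11 to 0.46, limma adjusted p = 0.0656). It passed with a replicate block (limma adjusted p = 0.0216), with a term for replicate 1 (0.0246), with replicates 2 to 4 alone (log2 fold 0.36, adjusted p = 0.0280), and without BgnKO fructose replicate 1 (0.34, 0.0256) or replicate 2 (0.33, 0.0499). Under these settings, in that order, 2483, 2190, 1377, 940 and 544 of all 12648 tested genes passed, against 475 in the main fit. Same-numbered libraries were not taken as pairs in this comparison. Over all settings its adjusted p ran up to 0.205, without BgnKO fructose replicate 4, where the log2 fold was 0.22. Without the library labelled WT fructose replicate 1 it was 0.30 (limma adjusted p = 0.0809). Ppp1r1b had 0.44 (SE 0.24, 95% interval -0.06 to 0.94, limma adjusted p = 0.295), with means of 58.9 ± 18.5 and 42.5 ± 9.90 FPKM, and 0.26 without BgnKO fructose replicate 4. Ppp1r1b had 0.27 without the library labelled WT fructose replicate 1. The other folds were -0.17 for Rasd2, -0.15 for Pde10a, -0.11 for Rarb, 0.10 for Syndig1l and 0.02 for Rgs9, of which Syndig1l and Rgs9 changed sign, to -0.03 and -0.06, without that library. With all libraries the median over the 7 was 0.02 against -0.01 for all tested genes.

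Marker lists of other cell types moved in the same comparison. All 8 astrocyte markers had a log2 fold above 0 (median 0.43), and Aqp4, Gfap and Gja1 rose, where 3.76% of all tested genes passed. The 8 microglial (median 0.37), 8 endothelial (0.24) and 10 choroid plexus markers (1.09) were also all above 0, with 0 passing. The lowest and highest choroid plexus sums of the 16 libraries both fell in this comparison. They were 233 FPKM in the library labelled WT fructose replicate 1 and 9202 in BgnKO fructose replicate 4. Of the 14 markers of hippocampal principal neurons, 12 were below 0 (median -0.11), and Wfs1 fell. Of 10 GABAergic markers 8 were below 0 (median -0.07), and of 8 oligodendrocyte markers 6 were above 0 (0.04), with 0 passing. Of 9 tested cortical markers 5 were below 0 (-0.21), and Krt12 fell. Thalamic and septal markers had medians of -0.09 and -0.10, with 0 passing. The part of these cell types in the folds of Adcy5 and Ppp1r1b was not tested.

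Fructose against water in WT gave 6 of 7 log2 folds below 0, with a median of -0.16 against 0.01 for all tested genes. Ppp1r1b had -0.21 (SE 0.24), Rgs9 -0.20 (SE 0.15), Pde10a -0.17 (SE 0.09), Syndig1l -0.16 (SE 0.17), Adcy5 -0.06 (SE 0.08) and Rarb -0.05 (SE 0.11), and Rasd2 had 0.09 (SE 0.10). The same WT water library bore on this comparison. Adora2a, from the fit without the filter, had -0.36 (SE 0.20), and -0.09 (SE 0.11) without that library. For the other 7, the values without it were -0.03, -0.04, -0.07, -0.05, -0.05, -0.06 and 0.19 in that order. Without the library labelled WT fructose replicate 1 they were -0.03, -0.13, -0.19, -0.04, -0.08, -0.07 and 0.03. Here 0 of 7 genes had groups apart, where 1.87% of tested genes did.

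In BgnKO, fructose against water, Pde10a was the gene with groups apart, a state that 3.99% of tested genes shared. Its means were 8.60 ± 0.83 FPKM on fructose and 10.5 ± 0.56 on water (SD, n = 4 each), and the log2 fold was -0.27 (SE 0.09, 95% interval -0.47 to -0.07, limma adjusted p = 0.318). It ran from -0.31 to -0.21 with 1 library left out. With a replicate block the limma adjusted p of Pde10a was 0.0706, and with a term for replicate 1 it was 0.108. Ppp1r1b had 0.38 (SE 0.24), Rarb -0.14 (SE 0.11), Adcy5 0.13 (SE 0.08), Rasd2 0.11 (SE 0.10), Syndig1l 0.05 (SE 0.17) and Rgs9 -0.03 (SE 0.15). With 1 library left out, Ppp1r1b ran from 0.20 (without BgnKO fructose replicate 4) to 0.51, Adcy5 from 0.07 (without the same library) to 0.19, Rarb from -0.21 to -0.07 (without BgnKO water replicate 1) and Rasd2 from 0.06 (without BgnKO fructose replicate 1) to 0.16. Syndig1l (-0.12 to 0.16) and Rgs9 (-0.10 to 0.03) changed sign, at -0.12 without BgnKO fructose replicate 3 and at 0.03 without BgnKO fructose replicate 1. Lists also moved with fructose in BgnKO. Below 0 were 10 of 11 phosphodiesterases (median -0.08), 11 of 13 striatal genes also in hippocampal neurons (-0.22) and 10 of 10 GABAergic markers (-0.18). All choroid plexus (0.53), oligodendrocyte (0.34), microglial (0.29), astrocyte (0.22) and endothelial markers (0.12) were above 0. Hippocampal principal neuron markers were split, 7 and 7. The part of these lists in the fold of Pde10a was not tested. The interaction was largest for Ppp1r1b, at 0.59 (SE 0.33, limma adjusted p = 0.999), and lay between -0.10 and 0.22 for the other 6.

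**Figure D4:**
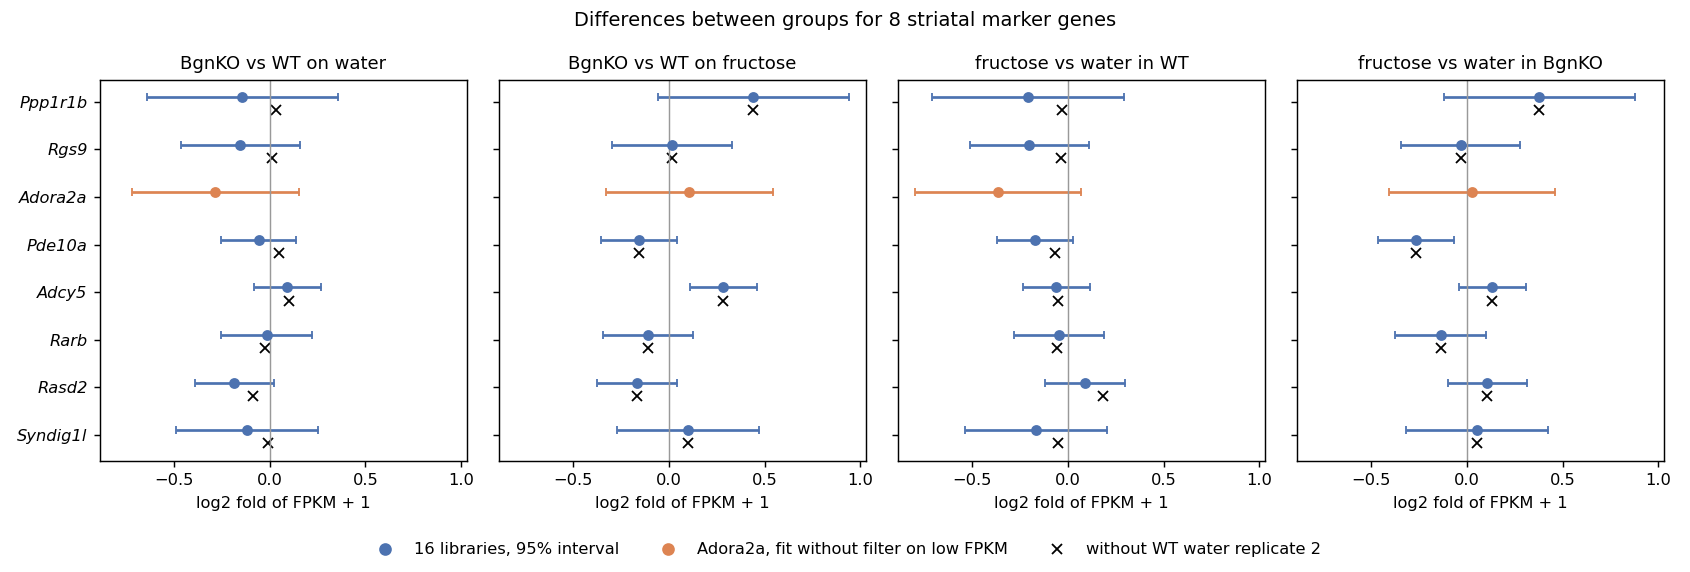
Log2 folds on the log2(FPKM + 1) scale with 95% intervals from limma for the 7 tested genes, and for Adora2a from the fit without the filter, in the 4 comparisons of groups; crosses give the fold without WT water replicate 2. The intervals leave out 0 for Adcy5 in BgnKO against WT on fructose (0.28) and for Pde10a in fructose against water in BgnKO (-0.27).

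BgnKO fructose replicate 4 was the highest library for Ppp1r1b (83.0 FPKM) and Adcy5 (45.9) and the lowest for Pde10a (7.51) and Rarb (1.59). The same library had the highest sums for choroid plexus (9202 FPKM), astrocyte (1567), oligodendrocyte (3613) and endothelial genes (154), and the lowest for hippocampal principal neurons (993) and GABAergic neurons (560). By group the choroid plexus sum over 10 genes ran from 2518 to 6060 FPKM in WT water, 233 to 4460 in WT fructose, 805 to 6290 in BgnKO water and 2643 to 9202 in BgnKO fructose, and none of the 10 was at 0 in any library.

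Each gene was set against 4 marker scores (the mean log2(FPKM + 1) of a list) over the 16 libraries, 32 relations in all. They were tested by permutation with Benjamini-Hochberg adjustment over the 32. The permutation p-values here and below take the 16 libraries as interchangeable, whatever their group or replicate number. The replicate 1 libraries stood apart, however, and the genes were selected on these same libraries. The p-values are therefore a description and no independent evidence of a relation. Ppp1r1b followed the choroid plexus score, with a Pearson r of 0.80 (permutation p = 0.00032, adjusted p = 0.0102) and a Spearman rho of 0.74 (permutation p = 0.00146, adjusted p = 0.0156). Leaving out the 2 libraries farthest from the median score, BgnKO fructose replicate 4 and the library labelled WT fructose replicate 1, gave an r of 0.58 (permutation p = 0.0316, unadjusted). The r was 0.81 within replicates 2 to 4, and the 4 replicate 1 libraries are too few for a value of their own. It was 0.84 without WT water replicate 2 and 0.73 without BgnKO fructose replicate 4.

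Rasd2 had a Spearman rho of 0.75 with the hippocampal principal neuron score and of 0.76 with the oligodendrocyte score (permutation, adjusted p = 0.0156 for both), with Pearson r of 0.68 and 0.64 (adjusted p = 0.0643 and 0.0747). Those r were 0.66 and 0.82 without the 2 farthest libraries, and 0.57 and 0.60 within replicates 2 to 4. Pde10a had a Spearman rho of 0.68 with the score of the 14 other striatal genes (permutation, adjusted p = 0.0382) and a Pearson r of 0.62 (adjusted p = 0.0770). That r was 0.53 without the 2 farthest libraries, 0.61 within replicates 2 to 4 and 0.43 without WT water replicate 2. With the oligodendrocyte score Pde10a had a Pearson r of -0.34 (permutation, adjusted p = 0.445). That value was 0.04 without the 2 libraries farthest from the score's median, -0.33 within replicates 2 to 4 and -0.82 without WT water replicate 2. Adcy5 had an r of -0.60 with the hippocampal principal neuron score (permutation, adjusted p = 0.0839), and -0.42 without the 2 farthest libraries. Rgs9, Adora2a, Rarb and Syndig1l had no Pearson or Spearman adjusted p below 0.05 with any of the 4 scores, and the part of tissue makeup in the levels of Ppp1r1b, Rasd2 and Pde10a was not tested.

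**Figure D5:**
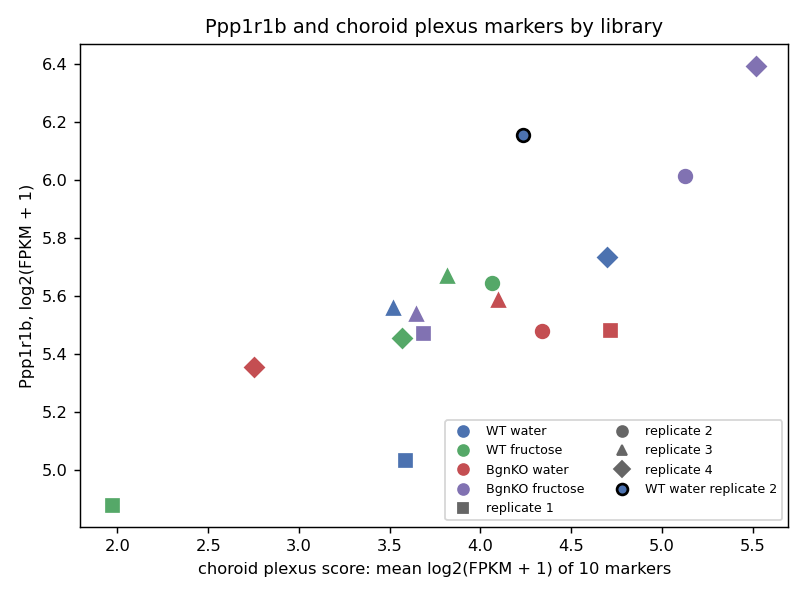
Ppp1r1b (y axis, log2(FPKM + 1)) against the choroid plexus score (x axis, mean log2(FPKM + 1) of 10 genes), one point a library, with colours for the 4 groups and shapes for replicate numbers. BgnKO fructose replicate 4 (83.0 FPKM) stands at the upper right and the library labelled WT fructose replicate 1 (28.4 FPKM) at the lower left, and the r over 16 libraries is 0.80.

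The other genes of the pathway stayed mostly below the threshold. Of 17 tested genes of cAMP and cAMP-dependent kinase signalling, 0 rose and 1 fell in BgnKO against WT on fructose, where 3.76% of all tested genes passed, with a median log2 fold of -0.05, and 0 passed in the other 4 comparisons. The 1 was Ppp3ca, the catalytic subunit of calcineurin, which dephosphorylates DARPP-32, with 441 ± 78.0 FPKM in BgnKO fructose and 647 ± 56.1 in WT fructose (SD, n = 4 each; limma log2 fold -0.56, SE 0.12, adjusted p = 0.0170). Of the 14 and 13 other striatal genes, 9 and 13 were tested and 0 passed in any comparison. Of 32 tested relatives of the 8 genes, 2 (6.25%) passed on fructose, beside the same 3.76%, and 0 in the other 4 comparisons. Adora2b was at 3.09 ± 0.54 FPKM in BgnKO fructose and 1.87 ± 0.13 in WT fructose (limma log2 fold 0.50, SE 0.09, adjusted p = 0.0102). Rgs11 was at 3.76 ± 0.47 and 6.33 ± 0.84 FPKM (limma log2 fold -0.62, SE 0.15, adjusted p = 0.0368), and like Rgs9 it had its highest value, 8.01 FPKM, in WT water replicate 2.

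The mean log2(FPKM + 1) of the 8 genes was 3.40 ± 0.24 in WT water, 3.26 ± 0.08 in WT fructose, 3.29 ± 0.05 in BgnKO water and 3.32 ± 0.09 in BgnKO fructose (SD, n = 4 each). Alone, WT water replicate 2 was at 3.75 and every other library between 3.14 and 3.37, so that the WT water mean without it was 3.28 ± 0.08. The genes whose pattern over 16 libraries was most like the mean z-score of the 8 were Hlcs (r = 0.77), Sbno2 (0.75), Prkx (0.73), Cyyr1 (0.71), Dhx34 (0.69), Klf3 (0.69), Limch1 (0.68), Pde8a (0.68), Npas4 (0.67) and Layn (0.66), after passing over 3 merged entries. Within replicates 2 to 4 these r were 0.57 to 0.77, and without WT water replicate 2 they were 0.42 to 0.74. These genes were picked for their r over the same libraries, so the values are no separate check. An r above 0.5 was found for 294 genes over 16 libraries and for 2302 without WT water replicate 2. Without that library, an r above 0.5 was thus shared by many genes. Npas4, a transcription factor gene induced by neuronal activity, was at 7.15 FPKM in WT water replicate 2 and between 1.12 and 6.01 in the other 15.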

How the data were processed

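Polyadenylated RNA from mouse hippocampus was sequenced on an Illumina HiSeq, per the labels' protocols. The submitters' processing notes name TopHat, Bowtie, Cufflinks and Cuffdiff as tools and mm10 as the genome build. Versions, annotation, strand setting and the scaling of the values are not given in the sources used here. The values are FPKM as the authors deposited them, in 1 table of 27670 loci. Of these, 4269 have no gene name and were left out, and loci of 1 name were summed to 22572 names. The table's 4 columns of group FPKM, which belong to no single library, were not used. FPKM keeps no depth, so no counting interval is given.

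Groups were taken from the sample titles. Log2(FPKM + 1) was fitted with limma (version 3.58.1, R version 4.3.3, with a mean-variance trend) over all 16 libraries with 4 group means, for the 12648 genes whose mean over libraries reached 1 FPKM. Benjamini-Hochberg adjustment ran over all tested genes, with a threshold of 0.05. The pseudocount of 1 makes folds of low genes smaller than they are. Adora2a came from a fit without the filter. The fit was also run on simulated data with independent noise and no difference of the replicate 1 libraries. That run cannot show how the fit behaves where such a difference is present, as it is here. Same-numbered libraries were taken as pairs where every correlation of their deviations from the group means was over 0.1. That held for fructose against water in WT (0.12 to 0.70) and in BgnKO (0.20 to 0.61). It did not for BgnKO against WT on water (-0.04 to 0.69) or on fructose (0.09 to 0.75). From replicates 2 to 4 alone it held in none of the 4 comparisons. The folds and p-values above are from the unpaired fit unless a setting is named, and the replicate block was run as an alternative.

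Correlations used 100000 permutations (Python 3.11.15, numpy 2.4.6, pandas 2.3.3, scipy 1.17.1), and figures matplotlib 3.10.9. Positions are from GENCODE vM21 (GRCm38, the mm10 assembly) and promoter sequences from RefSeq GRCm38.p6, matched by symbol. The 8 genes and all gene lists were chosen with earlier results of these data known. Besides the 8 genes, the text names the up to 4 most abundant genes of a list, those of the striatal list that is low in hippocampal neurons (1 gene of it is not reported here), genes that passed, and the 10 genes most correlated with the mean z-score of the 8. The alternatives were a pseudocount of 0.1, no filter, a filter of 5 FPKM, median-ratio and quantile scaling, a replicate block, a term for replicate 1, replicates 2 to 4 alone, the locus of highest level in place of the sum, and leaving out each library.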

Additional observations from a re-analysis of the deposited data

Results flagged for a closer look

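In 36 groups of 4 values (the 8 genes and their mean, in each of the 4 groups), a library far from the other 3 was looked for with Dixon's test, which chance meets in about 1 of 20 groups. The 8 genes were selected on these libraries, the mean is made of them, and the groups of different genes share libraries. A count of groups is therefore not to be weighed against that rate. The test was met 6 times. In WT water replicate 2 it was met by Adora2a (2.89 FPKM), Pde10a (13.9 FPKM) and Rasd2 (48.8 FPKM), each of them the highest value of all 16 libraries for its gene. Adora2a was also apart in WT fructose replicate 3, at 1.06 FPKM. That value is inside the range of the other groups. Rasd2 was apart in BgnKO water replicate 4, at 39.1 FPKM, where the other 3 libraries were within 33.2 to 33.8. The mean log2(FPKM + 1) of the 8 genes was apart in BgnKO fructose replicate 1, at 3.18, below the other 3 libraries of that group at 3.36 to 3.37. Rgs9, though highest in WT water replicate 2, did not meet the test there.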

How the results depend on the processing

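Of 825 values of the 35 member folds under alternatives, 820 kept their side of the threshold and moved by less than the spread between libraries, and 5 passed newly, all of Adcy5 in BgnKO against WT on fructose. Many of the 825 could not move. The filters, the replicate block, the term for replicate 1 and leaving out a library of a group outside the comparison change the error but not the fold. A move below the spread between libraries can still turn the sign, so these counts do not measure how stable the folds are. The sign differed in 23 of the 825, none of them of a fold that passed. Genes passing in BgnKO against WT on water numbered 49, but 26 with a filter of 5 FPKM, 125 with a replicate block, 126 with a term for replicate 1, 79 with replicates 2 to 4 alone, and 30 to 57 when 1 library was left out. On fructose they numbered 475, but 313, 2483, 2190 and 1377 under the same settings and 147 to 940 with 1 library left out. Fructose against water in WT and the interaction each had 1, and with replicates 2 to 4 alone 3 and 2. The cause was not tested. The replicate block, where the numbers were taken as pairs, changed no call of the 8 genes for fructose against water, Adora2a without the filter included. With a pseudocount of 0.1 the mean log2 of the 8 genes was 3.14 in WT water, 2.95 in WT fructose, 3.00 in BgnKO water and 3.02 in BgnKO fructose, as a smaller pseudocount lowers every log value. The unknown depth limits most Adora2a, which is listed near 1 FPKM or below in 15 of 16 libraries.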
